A study of Mus musculus with 8 samples.

Results

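Collagen chain genes were described in isografts of mouse pancreatic tumours, that is, tumour tissue grown in a mouse after transfer from another mouse. Every gene of the deposited table whose symbol is Col followed by a type number, the letter a and a chain number was taken, which gave 39 of 19133 genes. RNA came from the tumours of 8 mice. Libraries from 4 mice are labelled MEKi, as these mice had trametinib, which blocks the MEK kinases, for 7 days, and libraries from 4 mice are labelled control. The sources used here name neither a vehicle, a strain, a genotype nor an age, and each library is a piece of whole tumour with its stroma. The deposited table leaves out genes of few reads, its genes having 25 or more in total, and chains below that are not analysed here.

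Collagens are proteins of the extracellular matrix in which chains, each with long runs of a glycine-led repeat, wind into a triple helix. Fibrillar chains build the cable-like fibrils of connective tissue, type IV chains the sheet-like network of basement membranes under epithelia and around vessels, type VI chains beaded filaments near cells, and FACIT chains (fibril-associated collagens with interrupted triple helices) coat fibrils. In pancreatic cancer the dense stroma is known for its collagen, made largely by fibroblasts.

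Values of the libraries labelled MEKi and control overlapped for all 39 collagen chains, and no chain passed the test. By limma over all 19133 genes, with Benjamini-Hochberg adjustment, 0 of the 39 chains had an adjusted p under 0.05, against 0.00523% of all genes (1 gene), and the smallest adjusted p of a chain was 0.9996. At an unadjusted p under 0.05 the count was also 0, against 1.77% of all genes (1.3% lower and 0.465% higher), while limma voom on recovered reads had 0 chains called and 1, Col4a6, at an unadjusted p under 0.05. Groups that did not overlap were found for 0 chains, against 1.26% of all genes. Log2 differences, MEKi minus control, ran from -0.84 for Col4a6 to 0.44 for Col11a1, with 13 chains higher and 26 lower in sign. By limma voom on recovered reads they ran from -1.51 for Col6a5 to 1.65 for Col6a4. The median of the reported differences was -0.12, against 0.0055 over all genes, of which 51.5% were higher and 48.5% lower in sign. Fewer cells of a type and less RNA per cell cannot be told apart in such bulk samples. Log2 values here are the deposited variance-stabilised ones, where 1 unit is close to a factor of 2 for abundant genes and more than that for genes with few reads. The 95% interval of the difference lay within 1 on the log2 scale in both directions for 29 chains and within 0.5 for 6 chains. Larger shifts on this scale fell outside the interval for those, while 10 intervals reached further. The scale narrows the intervals of weak chains. Of the 6, Col22a1, Col4a4 and Col4a3 had 30, 150 and 239 reads in total. By limma voom on recovered reads Col22a1 was at -0.68, and Col6a4, which is among the 29, at 1.65.

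**Figure D1:**
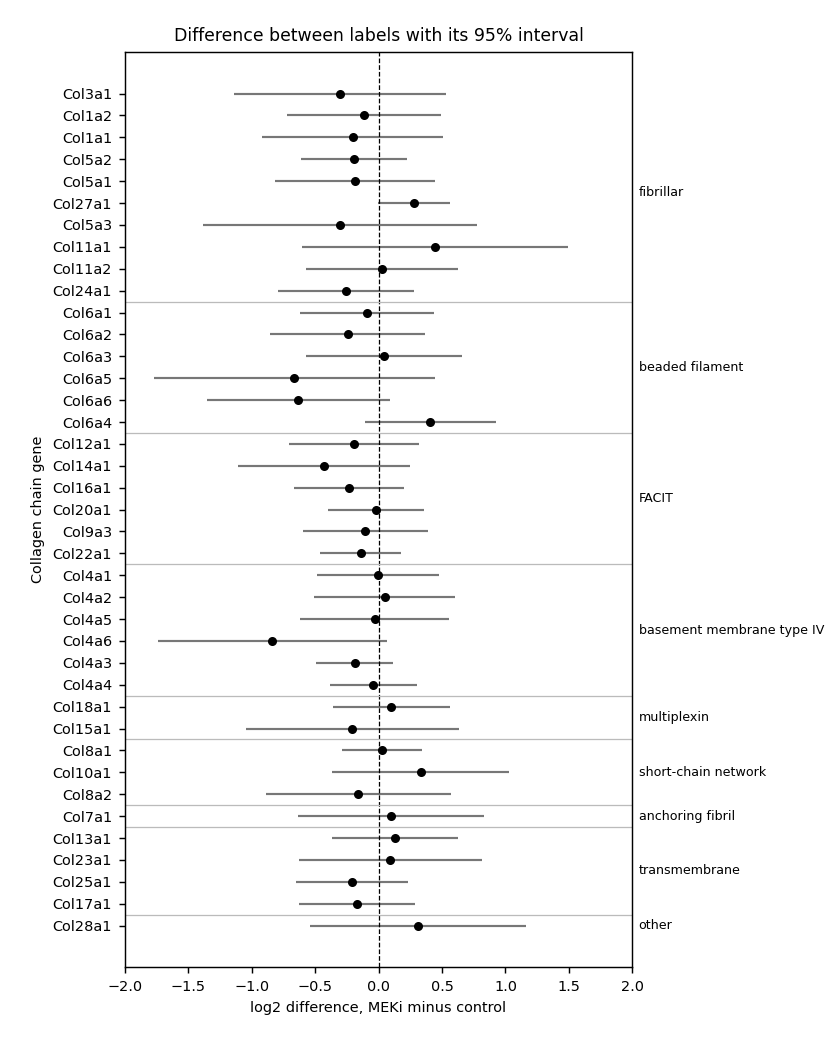
Log2 difference between libraries labelled MEKi and control (x axis) for each of the 39 collagen chain genes (y axis, by class); points are limma estimates and bars their 95% intervals. The interval crosses 0 for every chain, and the widest, for Col6a5, runs from -1.77 to 0.44.

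The labels were checked through genes switched on by ERK, the kinase downstream of MEK. Dusp6, which encodes an ERK phosphatase, had log2 values of 8.88, 12.12, 12.20 and 11.01 in MEKi replicates 1 to 4, against 12.19, 12.14, 9.31 and 9.24 in control replicates 1 to 4. Spry4, which damps receptor tyrosine kinase signals, had log2 values of 7.25, 9.88, 9.43 and 9.04 in MEKi replicates 1 to 4, against 9.82, 9.88, 7.66 and 7.20 in control replicates 1 to 4. High and low libraries of both genes stood under both labels, so that all comparisons below are between labels and not between tumours shown to differ in ERK output. Each library had between 20095113 and 38574819 reads in the genes tested. Acinar markers, the digestive enzyme genes of normal exocrine pancreas, were lower in sign in 11 of 11 genes, with means of 5.96 to 12.38 in MEKi libraries and 8.96 to 18.20 in control libraries, and control replicates 2 and 3 were highest. Tumour epithelial markers averaged 13.56 ± 0.47 in MEKi libraries and 13.72 ± 0.10 in control libraries (SD, n = 4 each), and skeletal muscle markers lay near the floor of 5.12, at 5.96 to 6.16 in MEKi libraries and 5.95 to 6.03 in control libraries for the 3 measured genes. Macrophage markers were lower in sign in 8 of 8 genes, with means of 11.13 to 11.35 in MEKi libraries and 11.31 to 11.94 in control libraries, and mesothelial markers in 5 of 5, with 7.96 to 8.29 in MEKi libraries and 8.14 to 8.93 in control libraries. Of the mesothelial markers only Msln, picked after its values were seen, was strong, at 13.76 to 14.65. The rest were weaker, such as Lrrn4 at 5.12 to 7.46 and Gpm6a at 5.90 to 6.77. Squamous epithelial and adipocyte markers were weak, at 5.99 to 6.50 in MEKi libraries and 5.98 to 6.58 in control libraries for the first list and 6.46 to 7.32 in MEKi libraries and 6.90 to 6.99 in control libraries for the second.

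Collagen transcripts took 0.80% ± 0.10 of the reads in MEKi libraries and 0.83% ± 0.28 in control libraries (SD, n = 4 each). The lowest share, 0.57%, and the highest, 1.21%, both belonged to control libraries, replicates 4 and 2. A share also depends on how many reads other genes take, and acinar markers were highest in control replicates 2 and 3. To compare chains with each other, reads scaled between libraries as the authors did were divided by the length of the longest principal transcript of the gene in GENCODE. On this scale the type III chain Col3a1 was the most abundant, with scaled reads per kilobase of 6301 ± 1918 in MEKi libraries and 8354 ± 4472 in control libraries (SD, n = 4 each). Next came the type I chains Col1a2, at 5974 ± 1410 in MEKi libraries and 6655 ± 2324 in control libraries, and Col1a1, at 4422 ± 1055 in MEKi libraries and 5355 ± 2312 in control libraries. Summed over the 39 chains, the level was 34308 ± 4578 in MEKi libraries and 39070 ± 13923 in control libraries. Control replicate 3 had 0.69% of its reads in collagens and a sum of 36276, against 0.87% and 38555 in control replicate 1. Col3a1, Col1a2 and Col1a1 made up 48.1% ± 6.26 of the summed collagen level in MEKi libraries and 50.8% ± 5.18 in control libraries. Type IV chains made up 14.7% ± 3.41 in MEKi libraries and 13.2% ± 1.32 in control libraries, and type VI chains made up 10.4% ± 1.2 in MEKi libraries and 10.3% ± 0.524 in control libraries.

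The order of the leading chains was Col3a1, Col1a2, Col1a1, Col4a1, Col18a1, Col6a1, Col5a2, Col4a2, Col6a2 and Col8a1 by mean over the 8 libraries. Col1a2 lay above Col1a1 in 8 of 8 libraries, Col1a1 above Col4a1 in 8 of 8 and Col4a1 above Col18a1 in 8 of 8. Col3a1 lay above Col1a2 in 6 of 8 libraries, Col6a1 above Col5a2 in 5 of 8 and Col6a2 above Col8a1 in 4 of 8, so that these neighbours were not ordered in all libraries. With the length of all annotated exons in place of 1 transcript, Col1a1 ranked 1 and Col1a2 ranked 4. At the low end, 6 chains had fewer than 100 reads in every library and 4 of them (Col6a4, Col17a1, Col22a1 and Col25a1) had a library with 0 reads. Over 1000 reads in every library were seen for 17 chains.

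**Figure D2:**
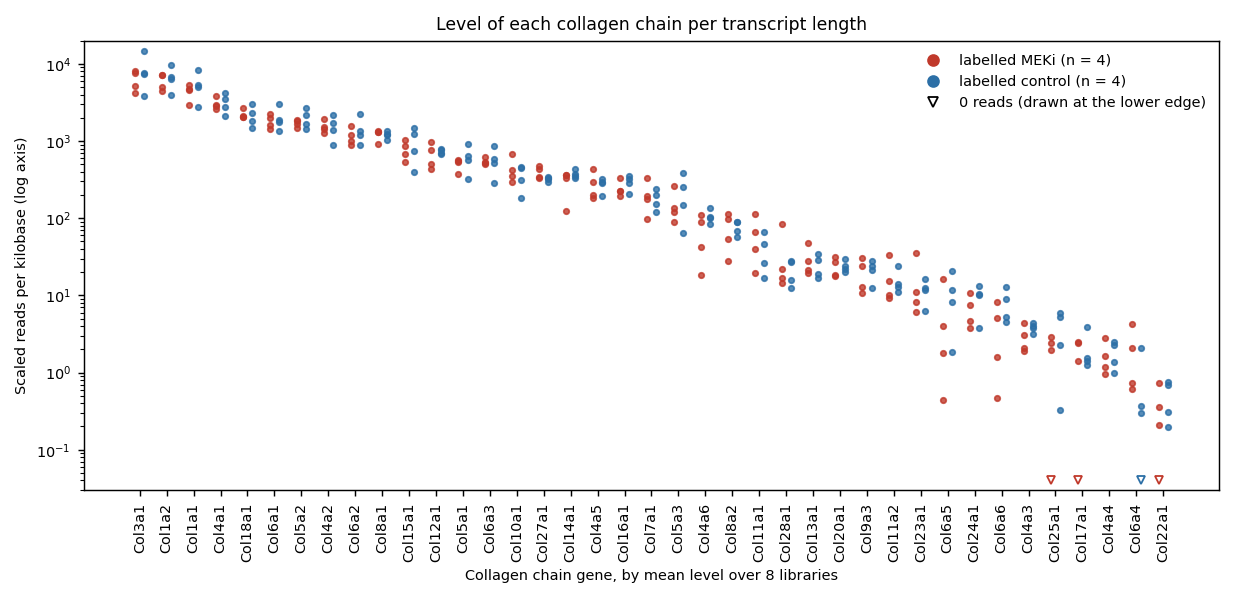
Scaled reads per kilobase of transcript (y axis, log scale) for each of the 39 collagen chains (x axis, by mean level), 1 point per library. Col3a1, Col1a2 and Col1a1 lead, and points of the libraries labelled MEKi and control overlap for every chain.

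Among fibrillar chains, 3 of 10 were higher and 7 lower in sign, with a median log2 difference of -0.19. Col3a1 (chromosome 1, 45311538 to 45349706; coordinates are GENCODE M21 on GRCm38), which forms fibrils together with type I, had log2 values of 15.48, 14.83, 15.37 and 14.51 in MEKi replicates 1 to 4, against 15.36, 16.31, 15.35 and 14.39 in control replicates 1 to 4. Col1a1 (chromosome 11, 94936224 to 94953042) had 14.78, 14.75, 14.97 and 14.09 in MEKi replicates 1 to 4, against 14.93, 15.60, 14.87 and 13.99 in control replicates 1 to 4. For Col1a2 (chromosome 6, 4504814 to 4541544) the values were 15.22, 14.73, 15.24 and 14.55 in MEKi replicates 1 to 4, against 15.13, 15.65, 15.07 and 14.35 in control replicates 1 to 4. In all 3 genes control replicate 2 was highest and control replicate 4 lowest, and the MEKi libraries lay between them. The log2 difference was -0.30 (SE 0.37, 95% interval -1.14 to 0.53) for Col3a1, -0.20 (SE 0.32, 95% interval -0.92 to 0.51) for Col1a1 and -0.12 (SE 0.27, 95% interval -0.72 to 0.49) for Col1a2. Leaving out control replicate 2 turned the 3 differences to 0.014, 0.047 and 0.082, and leaving out control replicate 4 gave -0.62, -0.49 and -0.35.

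Promoters are shown for Col1a2 and Col3a1, because these are the chains of highest level per length. The windows come from RefSeq (build GRCm38.p6), each from 250 bases before to 50 bases after the start, printed 5′ to 3′ on the strand of the gene. Col1a2 is at chr6:4505368-4505667 and Col3a1 at chr1:45311288-45311587, both on the plus strand. The RefSeq start used for Col1a2, 4505618, lies inside the GENCODE gene, which begins at 4504814, while for Col3a1 both give 45311538. Matches in the Col1a2 window thus depend on the start taken. Capitals mark CCAAT or its reverse complement ATTGG, the GC box GGGCGG or CCGCCC, and TATAAA or TTTATA, searched on both strands, and no such match overlaps another in the windows printed here.
Col1a2: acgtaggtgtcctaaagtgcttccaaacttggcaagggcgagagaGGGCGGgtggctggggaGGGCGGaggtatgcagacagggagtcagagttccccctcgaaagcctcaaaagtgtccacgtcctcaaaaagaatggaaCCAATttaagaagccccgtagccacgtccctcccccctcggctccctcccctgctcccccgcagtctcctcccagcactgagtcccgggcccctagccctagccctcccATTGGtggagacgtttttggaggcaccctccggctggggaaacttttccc
Col3a1: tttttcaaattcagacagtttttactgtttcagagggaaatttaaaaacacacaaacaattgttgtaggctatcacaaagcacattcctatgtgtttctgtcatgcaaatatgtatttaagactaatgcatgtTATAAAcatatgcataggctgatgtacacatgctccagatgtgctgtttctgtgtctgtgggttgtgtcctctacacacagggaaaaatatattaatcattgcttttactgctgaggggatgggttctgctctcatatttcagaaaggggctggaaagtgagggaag
Col1a2 held 2 CCAAT matches and 2 GC boxes in 61.0% GC, and Col3a1 held none of either but 1 TATAAA match in 37.7% GC. RefSeq windows were matched for 32 of the 39 chains, 34 windows in all as Col18a1 and Col6a2 each have several. A CCAAT match stood in 12 of the 34 windows (35.3%, against 37.4% of all 32851 mouse windows), a GC box in 22 (64.7%, against 35.7%) and TATAAA in 5 (14.7%, against 13.6%). These are matches of letters and not binding sites, and GC content also differed, with a median of 60.0% in the 34 windows against 52.7% in all.

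The type V chains, which start type I fibrils and limit their width, had the same highest and lowest libraries as the type I and III chains. Col5a2 (chromosome 1, 45374321 to 45503282) had 13.58, 13.59, 13.44 and 13.27 in MEKi replicates 1 to 4, against 13.83, 14.13, 13.45 and 13.24 in control replicates 1 to 4. Col5a1 (chromosome 2, 27886425 to 28039514) had 12.26, 12.17, 12.21 and 11.64 in MEKi replicates 1 to 4, against 12.24, 12.93, 12.41 and 11.43 in control replicates 1 to 4. Col5a3 (chromosome 9, 20770050 to 20815067), a type V chain of more limited distribution, had 9.66, 10.72, 9.83 and 9.24 in MEKi replicates 1 to 4, against 10.66, 11.23, 9.92 and 8.86 in control replicates 1 to 4, a range of 2.36 that crossed both labels. Control replicate 2 was the highest library for 7 of the 10 fibrillar chains and control replicate 4 the lowest for 8. The log2 differences were -0.19 for Col5a2, -0.18 for Col5a1 and -0.30 for Col5a3. Without control replicate 2 they were -0.039, 0.043 and 0.05, and without control replicate 4 -0.33, -0.46 and -0.74. Of 11 fibroblast markers other than collagens, 1 was higher and 10 were lower in sign, with means of 10.86, 10.18, 10.47 and 10.54 in MEKi replicates 1 to 4, against 10.74, 11.22, 10.81 and 10.45 in control replicates 1 to 4. Control replicate 2 was highest here too, but the lowest library was MEKi replicate 2 and not control replicate 4. The part of fibroblast content in the fibrillar values was not tested.

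Col11a1 and Col27a1 were highest in MEKi replicate 4. Col11a1 (chromosome 3, 114030540 to 114220718), a chain of cartilage fibrils that is also known from activated tumour stroma, had 9.17, 7.75, 8.54 and 9.89 in MEKi replicates 1 to 4, against 8.07, 7.59, 8.72 and 9.19 in control replicates 1 to 4. Its lowest library was control replicate 2, the one with the highest Col1a1 and Col3a1. The log2 difference was 0.44 (SE 0.47, 95% interval -0.60 to 1.49), and 0.094 without MEKi replicate 4. Col27a1 (chromosome 4, 63214004 to 63334991), a fibrillar chain described mainly in cartilage, had 11.35, 11.71, 11.40 and 11.86 in MEKi replicates 1 to 4, against 11.36, 11.29, 11.37 and 11.19 in control replicates 1 to 4. It had the smallest p of the 39 chains, 0.0522 before adjustment, and a log2 difference of 0.28 (SE 0.13, 95% interval -0.0032 to 0.56), although MEKi replicate 1 lay below control replicates 1 and 3. The remaining fibrillar chains were weak: Col11a2 spanned 6.76 to 7.92 in MEKi libraries and 6.90 to 7.58 in control libraries, and Col24a1 spanned 6.35 to 7.10 in MEKi libraries and 6.34 to 7.29 in control libraries.

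**Figure D3:**
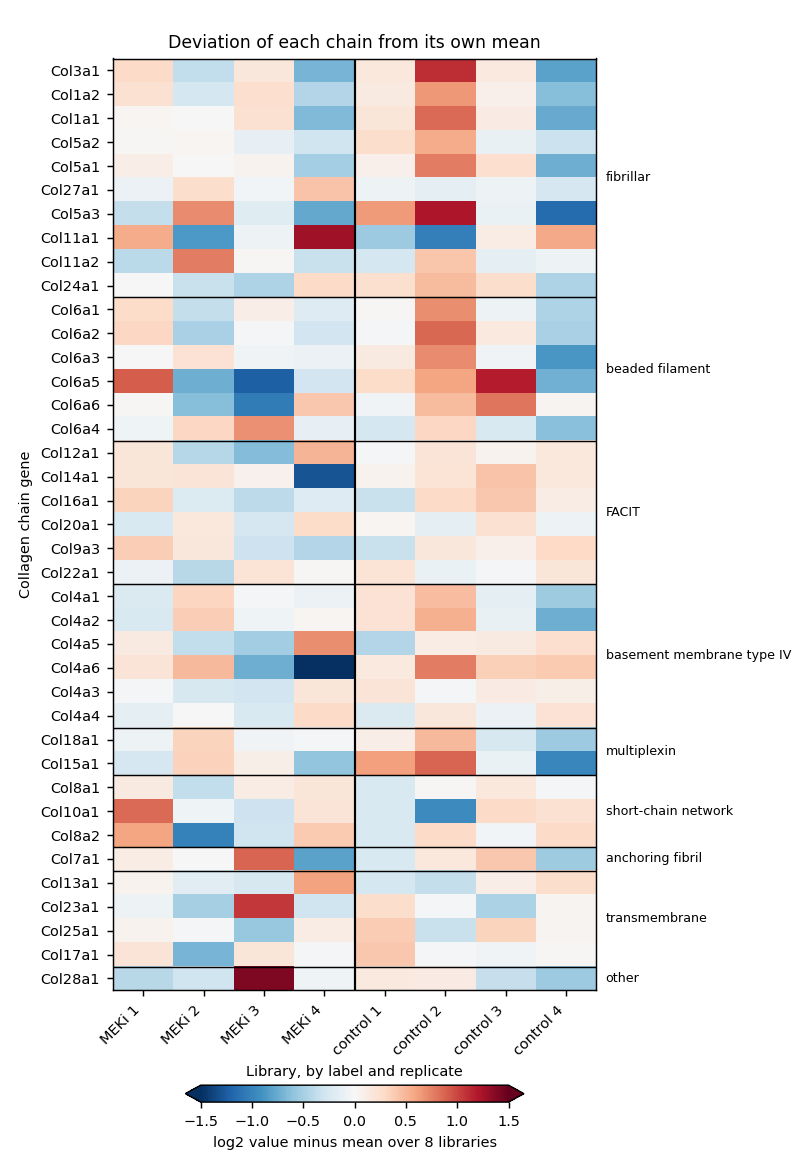
Deviation of each collagen chain (rows, by class) from its own mean over the 8 libraries on the log2 scale (colour), for MEKi replicates 1 to 4 and control replicates 1 to 4 (columns); colours saturate at the ends of the scale. Control replicate 2 is highest for 15 of the 39 chains and control replicate 4 lowest for 17, while MEKi replicate 4 is highest for 8.

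Type VI chains form beaded filaments that link cells to the matrix. Of 6 such chains, 2 were higher and 4 lower in sign, with a median log2 difference of -0.17. Col6a1 (chromosome 10, 76708792 to 76726168) had 13.18, 12.56, 13.01 and 12.71 in MEKi replicates 1 to 4, against 12.92, 13.61, 12.84 and 12.45 in control replicates 1 to 4. Col6a2 (chromosome 10, 76595762 to 76623630) had 12.59, 11.79, 12.25 and 11.99 in MEKi replicates 1 to 4, against 12.25, 13.14, 12.42 and 11.79 in control replicates 1 to 4. Col6a3 (chromosome 1, 90765923 to 90843971), the longest chain of that heterotrimer, had 12.26, 12.47, 12.20 and 12.17 in MEKi replicates 1 to 4, against 12.39, 12.96, 12.21 and 11.38 in control replicates 1 to 4. All 3 were highest in control replicate 2 and lowest in control replicate 4, as the type I and III chains were, and their log2 differences were -0.09 for Col6a1, -0.24 for Col6a2 and 0.041 for Col6a3.

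Of the type VI chains, 3 lie next to each other on chromosome 9 and can take the place of the Col6a3 product, and these differed among themselves. Col6a5 (chromosome 9, 105856078 to 105960643) had 7.74, 6.09, 5.61 and 6.55 in MEKi replicates 1 to 4, against 7.10, 7.42, 8.01 and 6.10 in control replicates 1 to 4. Col6a6 (chromosome 9, 105687809 to 105828160) had 6.68, 6.02, 5.61 and 7.05 in MEKi replicates 1 to 4, against 6.60, 7.13, 7.46 and 6.70 in control replicates 1 to 4. Both were highest in control replicate 3 and lowest in MEKi replicate 3, where each had 5 reads. The log2 difference was -0.66 (SE 0.49, 95% interval -1.77 to 0.44) for Col6a5 and -0.63 (SE 0.32, 95% interval -1.35 to 0.086) for Col6a6, -0.0043 and -0.14 with the mean acinar marker level as a covariate, and -1.51 and -1.49 by limma voom on recovered reads. Acinar markers too were highest in control replicate 3 and lowest in MEKi replicate 3, and their part in these values was not tested. Their neighbour Col6a4 (chromosome 9, 105989454 to 106096783) had instead its highest level in MEKi replicate 3 and no read in control replicate 4, with 6 to 38 reads in MEKi libraries and 0 to 18 reads in control libraries. The log2 difference of Col6a4 was 0.41, and 1.65 by limma voom on recovered reads.

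FACIT chains sit on the surface of fibrils. All 6 were lower in sign, with log2 differences from -0.43 to -0.019 and a median of -0.17, and none passed the test. The sign turned under 7 of 20 alternatives for Col20a1, 2 for Col9a3 and 1 for Col12a1, where some of the 20 cannot change a difference. Col12a1 (chromosome 9, 79598991 to 79718831), which binds type I fibrils in tissues under load, had 13.14, 12.52, 12.30 and 13.46 in MEKi replicates 1 to 4, against 12.93, 13.14, 13.01 and 13.10 in control replicates 1 to 4. Unlike the type I chains it was highest in MEKi replicate 4. Col14a1 (chromosome 15, 55307750 to 55520803), a relative found in mature connective tissue, had 11.05, 11.06, 10.94 and 9.58 in MEKi replicates 1 to 4, against 10.93, 11.08, 11.30 and 11.04 in control replicates 1 to 4. MEKi replicate 4 stood far below the other libraries, and the log2 difference of -0.43 (SE 0.30, 95% interval -1.11 to 0.25) was -0.069 without that library. Col16a1 (chromosome 4, 130047840 to 130099283) had 10.82, 10.29, 10.09 and 10.30 in MEKi replicates 1 to 4, against 10.15, 10.77, 10.89 and 10.60 in control replicates 1 to 4, a log2 difference of -0.23. The other 3 were weak: Col20a1 spanned 7.25 to 7.78 in MEKi libraries and 7.35 to 7.73 in control libraries, the cartilage chain Col9a3 6.46 to 7.27 in MEKi libraries and 6.56 to 7.20 in control libraries, and Col22a1, known from muscle-tendon junctions, had 0 to 8 reads in MEKi libraries and 2 to 6 reads in control libraries.

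Type IV chain genes lie as 3 head-to-head pairs in the mouse genome, and the values of each pair are given together. Col4a1 (chromosome 8, 11198423 to 11312826) and Col4a2 (chromosome 8, 11312805 to 11449287) encode the chains found in nearly all basement membranes. Their annotated start sites stand 21 bases apart on opposite strands, so that both promoters share sequence, whereas those of Col4a5 and Col4a6 stand 1343 bases apart. Their RefSeq promoter windows, with the same build, span and motifs as for Col1a2, are shown because the balance of each pair is compared below. They are chr8:11312777-11313076 on the minus strand, chr8:11312555-11312854 on the plus strand, chrX:141475169-141475468 on the plus strand and chrX:141474027-141474326 on the minus strand. Capitals mark the same motifs as above.
Col4a1: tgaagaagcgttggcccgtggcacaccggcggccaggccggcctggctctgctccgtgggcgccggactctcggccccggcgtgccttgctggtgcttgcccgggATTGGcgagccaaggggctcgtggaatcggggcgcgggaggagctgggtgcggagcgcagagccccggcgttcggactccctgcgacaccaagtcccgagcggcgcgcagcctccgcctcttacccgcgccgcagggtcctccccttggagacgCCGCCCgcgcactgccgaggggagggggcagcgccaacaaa
Col4a2: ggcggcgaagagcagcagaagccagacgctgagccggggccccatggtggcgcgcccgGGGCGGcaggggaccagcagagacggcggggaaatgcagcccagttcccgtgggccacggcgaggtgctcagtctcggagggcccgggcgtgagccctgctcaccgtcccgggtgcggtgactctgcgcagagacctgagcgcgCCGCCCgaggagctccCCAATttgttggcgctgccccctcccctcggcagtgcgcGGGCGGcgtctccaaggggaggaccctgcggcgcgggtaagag
Col4a5: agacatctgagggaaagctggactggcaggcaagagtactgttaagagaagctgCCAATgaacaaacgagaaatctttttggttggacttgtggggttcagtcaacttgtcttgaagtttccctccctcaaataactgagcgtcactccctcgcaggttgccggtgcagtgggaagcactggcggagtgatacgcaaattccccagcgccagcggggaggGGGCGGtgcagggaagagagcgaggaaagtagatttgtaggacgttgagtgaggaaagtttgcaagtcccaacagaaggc
Col4a6: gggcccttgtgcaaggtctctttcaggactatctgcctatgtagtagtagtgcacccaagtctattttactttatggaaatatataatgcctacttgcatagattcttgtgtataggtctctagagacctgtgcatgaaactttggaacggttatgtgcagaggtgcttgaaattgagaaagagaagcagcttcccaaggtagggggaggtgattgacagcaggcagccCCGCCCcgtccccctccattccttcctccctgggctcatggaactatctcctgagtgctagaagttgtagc
The windows of Col4a1 and Col4a2 share 78 bases as reverse complements, and those of Col4a5 and Col4a6 do not overlap. GC content was 73.7% in the Col4a2 window, 52.7% in that of Col4a5 and 48.3% in that of Col4a6. A CCAAT match was found in Col4a1, Col4a2 and Col4a5 but not in the Col4a6 window. GC boxes were found in all 4.

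Col4a1 had log2 values of 14.09, 14.62, 14.26 and 14.21 in MEKi replicates 1 to 4, against 14.52, 14.77, 14.15 and 13.77 in control replicates 1 to 4. Col4a2 had 13.01, 13.61, 13.17 and 13.26 in MEKi replicates 1 to 4, against 13.45, 13.77, 13.12 and 12.51 in control replicates 1 to 4. Both were highest in control replicate 2, followed by MEKi replicate 2, and lowest in control replicate 4, and the log2 differences were -0.0069 for Col4a1 and 0.048 for Col4a2. The log2 ratio of Col4a1 to Col4a2 was 1.08, 1.01, 1.09 and 0.95 in MEKi replicates 1 to 4, against 1.07, 0.997, 1.03 and 1.26 in control replicates 1 to 4. Over the 8 libraries this ratio had an SD of 0.094, against 0.32 for Col4a1 and 0.39 for Col4a2 alone, the smallest SD of the 10 pairs compared.

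The X-linked pair differed most in MEKi replicate 4. Col4a5 (chromosome X, 141475385 to 141689234), part of the basement membranes of kidney and smooth muscle among others, had 10.95, 10.45, 10.29 and 11.51 in MEKi replicates 1 to 4, against 10.37, 10.93, 10.95 and 11.07 in control replicates 1 to 4. Col4a6 (chromosome X, 141165403 to 141474076), its partner in smooth muscle and some epithelial basement membranes, had 9.36, 9.65, 8.43 and 7.54 in MEKi replicates 1 to 4, against 9.31, 9.93, 9.53 and 9.56 in control replicates 1 to 4. In MEKi replicate 4 Col4a5 was at its highest and Col4a6 at its lowest. The log2 ratio of Col4a5 to Col4a6 was 1.59, 0.80, 1.86 and 3.97 in MEKi replicates 1 to 4, against 1.06, 0.999, 1.43 and 1.51 in control replicates 1 to 4, and MEKi replicate 4 stood far above the rest. Over the other 7 libraries the SD was 0.38, against 0.39 for Col3a1 and Col5a2 and 0.089 for Col4a1 and Col4a2 in the same libraries. On the deposited scale Col4a6 also had the most negative log2 difference of all chains, -0.84 (SE 0.40, 95% interval -1.74 to 0.068). MEKi replicates 3 and 4 lay below all control libraries and MEKi replicates 1 and 2 among them. The difference of Col4a6 was -0.44 without MEKi replicate 4 and -1.14 without MEKi replicate 2. By limma voom on recovered reads it was -1.17, less negative than Col6a5 at -1.51 and Col6a6 at -1.49. The mean of the tumour epithelial markers was also lowest in MEKi replicate 4, at 12.87 against 13.62 to 13.86 in the other 7 libraries. Epcam (10.70), Cldn4 (7.32) and the keratin genes of that list were lowest there, but Cdh1 was at its highest, 14.49. The part of tumour epithelial content in the Col4a6 value was not tested.

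The last pair, Col4a3 (chromosome 1, 82586921 to 82722059) and Col4a4 (chromosome 1, 82448423 to 82586849), which serve the filtering membrane of the kidney, was near the floor. Col4a3 had 6.34, 6.13, 6.09 and 6.56 in MEKi replicates 1 to 4, against 6.56, 6.34, 6.50 and 6.47 in control replicates 1 to 4. Col4a4 had 5.95, 6.09, 5.87 and 6.39 in MEKi replicates 1 to 4, against 5.88, 6.27, 6.01 and 6.32 in control replicates 1 to 4. Col4a3 had 14 to 59 reads in MEKi libraries and 25 to 34 reads in control libraries, and Col4a4 had 12 to 45 reads in MEKi libraries and 9 to 27 reads in control libraries, a depth at which small differences are not detectable. These genes too lie close, 71 bases apart. Their log2 ratio had an SD of 0.22 over the 8 libraries. That SD was 0.094 for Col4a1 and Col4a2, and 0.17 for Col1a1 and Col1a2 on different chromosomes. Whether the ratio goes with the distance was not tested. Over the 6 type IV chains 1 was higher and 5 were lower in sign, with a median log2 difference of -0.037.

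The multiplexins Col18a1 and Col15a1, collagens of the basement membrane zone of which Col18a1 gives rise to the vessel growth inhibitor endostatin, had the same highest and lowest libraries as Col4a1 and Col4a2. Col18a1 (chromosome 10, 77052178 to 77166548) had 13.26, 13.67, 13.28 and 13.32 in MEKi replicates 1 to 4, against 13.44, 13.81, 13.09 and 12.79 in control replicates 1 to 4. Col15a1 (chromosome 4, 47208161 to 47313167) had 11.79, 12.39, 12.14 and 11.46 in MEKi replicates 1 to 4, against 12.67, 12.92, 11.95 and 11.07 in control replicates 1 to 4. Both were highest in control replicate 2 and lowest in control replicate 4, with log2 differences of 0.10 for Col18a1 and -0.21 (SE 0.37, 95% interval -1.05 to 0.63) for Col15a1. Without control replicate 2 these were 0.28 for Col18a1 and 0.049 for Col15a1, and without control replicate 4 they were -0.063 and -0.57. Of 8 blood endothelial markers 1 was higher and 7 were lower in sign, with means of 8.79, 9.45, 9.19 and 9.15 in MEKi replicates 1 to 4, against 9.80, 9.88, 9.02 and 8.67 in control replicates 1 to 4. Control replicates 1 and 2 and MEKi replicate 2 were the 3 highest libraries for these markers and for Col4a1, Col4a2, Col15a1 and Col18a1. The same held for the fibrillar chains Col5a2 and Col5a3, so that it was not particular to basement membrane chains. These 3 libraries were also highest for the mean of 12 genes switched on by ERK. That mean was 10.68, 10.60 and 10.81 in them, with the next, MEKi replicate 3, at 10.51. The part of vessel content or of ERK output in the values of these chains was not tested.

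**Figure D4:**
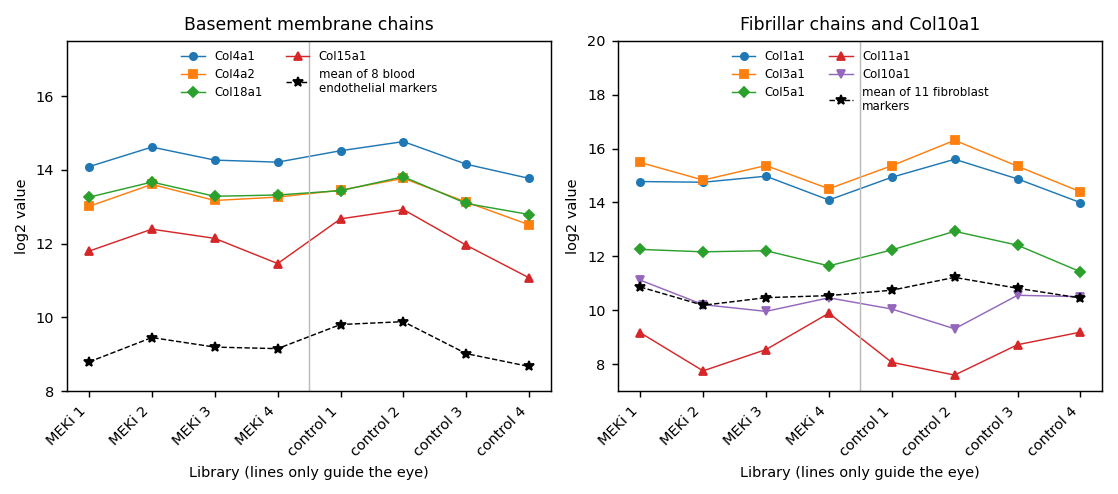
Log2 values (y axis) by library (x axis) for Col4a1, Col4a2, Col18a1 and Col15a1 beside the mean of 8 blood endothelial markers, and for Col1a1, Col3a1, Col5a1, Col11a1 and Col10a1 beside the mean of 11 fibroblast markers. Control replicate 2 is highest and control replicate 4 lowest for the first 4 chains, and Col11a1 and Col10a1 are lowest in control replicate 2, at 7.59 and 9.31.

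Short-chain network collagens form hexagonal lattices. Col8a1 (chromosome 16, 57624258 to 57754737), a collagen of vessel walls and of the membrane behind the cornea, had 12.73, 12.23, 12.71 and 12.78 in MEKi replicates 1 to 4, against 12.37, 12.62, 12.76 and 12.58 in control replicates 1 to 4. MEKi libraries held both the highest and the lowest value, and its log2 difference was 0.03 (SE 0.14, 95% interval -0.29 to 0.35). Col8a2 (chromosome 4, 126286793 to 126314330), its partner chain, had 9.13, 7.52, 8.24 and 8.92 in MEKi replicates 1 to 4, against 8.31, 8.82, 8.49 and 8.82 in control replicates 1 to 4, and was lowest in MEKi replicate 2. Col10a1 (chromosome 10, 34389981 to 34397085), a chain of hypertrophic cartilage that is also seen in tumour stroma, had 11.12, 10.21, 9.96 and 10.46 in MEKi replicates 1 to 4, against 10.04, 9.31, 10.55 and 10.50 in control replicates 1 to 4. As with Col11a1, its lowest library was control replicate 2, and its log2 difference of 0.33 (SE 0.31, 95% interval -0.37 to 1.03) was 0.068 without that library. Of the 3 measured cartilage and bone markers 2 were higher in sign and 1 lower, with means of 6.65 to 7.85 in MEKi libraries and 6.93 to 7.99 in control libraries. The 2 higher ones were weak, Comp with 2 to 30 reads per library and Matn3 with 1 to 16. Acan, the lower one, had a log2 difference of -0.42 (SE 0.90, 95% interval -2.43 to 1.59). It was highest in control replicate 2, at 12.17, and lowest in MEKi replicate 4, at 7.99.

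The remaining chains are an anchoring fibril chain, transmembrane chains and Col28a1. Col7a1 (chromosome 9, 108953586 to 108984875), the chain of the anchoring fibrils of skin, had 10.85, 10.75, 11.62 and 9.94 in MEKi replicates 1 to 4, against 10.52, 10.90, 11.15 and 10.22 in control replicates 1 to 4. The highest and the lowest library of Col7a1 were both labelled MEKi. Col13a1 (chromosome 10, 61838236 to 61979108), a transmembrane collagen of the neuromuscular junction, had 7.22, 6.99, 6.92 and 7.76 in MEKi replicates 1 to 4, against 6.90, 6.81, 7.26 and 7.42 in control replicates 1 to 4. Col23a1 (chromosome 11, 51289920 to 51583918), also a transmembrane collagen, had 6.92, 6.50, 8.05 and 6.70 in MEKi replicates 1 to 4, against 7.25, 6.98, 6.52 and 7.04 in control replicates 1 to 4. MEKi replicate 3 stood highest for Col7a1 and Col23a1, with 246 reads of Col23a1 against 26 to 82 in the other libraries. Col28a1 (chromosome 6, 7997808 to 8192617), known from peripheral nerve, had 6.92, 7.04, 8.74 and 7.27 in MEKi replicates 1 to 4, against 7.49, 7.46, 6.99 and 6.79 in control replicates 1 to 4, with MEKi replicate 3 highest again. Its log2 difference of 0.31 (SE 0.38, 95% interval -0.54 to 1.16) was -0.10 without that library. The 2 measured Schwann cell markers had means of 7.24, 6.78, 6.94 and 7.64 in MEKi replicates 1 to 4, against 6.87, 6.70, 7.28 and 7.34 in control replicates 1 to 4, with MEKi replicate 4 highest, and the part of nerve content in the Col28a1 value was not tested. Col25a1 (chromosome 3, 130131501 to 130599877), a neuronal transmembrane chain, had 5.73, 5.66, 5.12 and 5.79 in MEKi replicates 1 to 4, against 6.06, 5.34, 6.01 and 5.71 in control replicates 1 to 4, from 0 to 14 reads, and the hemidesmosome chain Col17a1 had 0 to 16 reads in MEKi libraries and 5 to 19 reads in control libraries.

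Pairs of chains that share a trimer, a fibril or a neighbourhood in the genome were compared within each library by the deposited log2 value of the first chain minus that of the second, called the log2 ratio here. Near the floor this understates the ratio of the reads, which touches pairs with a weak chain (Col4a6, Col8a2, Col4a3 and Col4a4). Of 10 pairs, 0 passed an exact permutation test over 70 relabellings (two-sided, smallest possible p 0.0286, Benjamini-Hochberg adjustment over the 10 pairs). A single separated pair could reach an adjusted p of 0.286 at best and 6 would have to separate to pass, so that the count of 0 says little. The smallest p belonged to Col6a1 and Col6a2, whose ratio was 0.59, 0.76, 0.76 and 0.72 in MEKi replicates 1 to 4, against 0.67, 0.47, 0.41 and 0.66 in control replicates 1 to 4 (difference 0.15, exact permutation p = 0.114, adjusted p = 0.714). For the type I trimer, built of Col1a1 and Col1a2 chains, the log2 ratio of Col1a1 to Col1a2 was -0.44, 0.019, -0.27 and -0.46 in MEKi replicates 1 to 4, against -0.20, -0.046, -0.20 and -0.36 in control replicates 1 to 4 (difference -0.087, exact permutation p = 0.457, adjusted p = 0.714). Its SD over the 8 libraries was 0.17, against 0.51 for Col1a1 and 0.42 for Col1a2, which lie on different chromosomes. Per transcript length, Col1a1 was at 0.65 to 0.91 times the level of Col1a2, and with all annotated exons as length the mean ratio was 1.61, so that the balance of the transcripts depended on the length taken.

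Col3a1 and Col5a2 are neighbours on chromosome 1, with 24.6 kb between them, and their ratio varied with an SD of 0.39 over the 8 libraries. The SD was 0.20 for Col3a1 and Col1a1, which share fibrils but no locus, and 0.13 for the neighbours Col6a1 and Col6a2. Ratios of Col15a1 to Col18a1 were -1.46, -1.28, -1.14 and -1.86 in MEKi replicates 1 to 4, against -0.76, -0.89, -1.13 and -1.72 in control replicates 1 to 4 (difference -0.31, exact permutation p = 0.286, adjusted p = 0.714). For Col4a5 and Col4a6 the test gave a difference 0.80, exact permutation p = 0.314, adjusted p = 0.714, and the difference was 0.17 to 1.22 with each library left out, lowest without MEKi replicate 4. On recovered reads plus 1 it was 0.96. MEKi replicates 1, 3 and 4 lay above all control libraries and MEKi replicate 2 below them. The other 6 pairs had differences from -0.15 to 0.19.

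**Figure D5:**
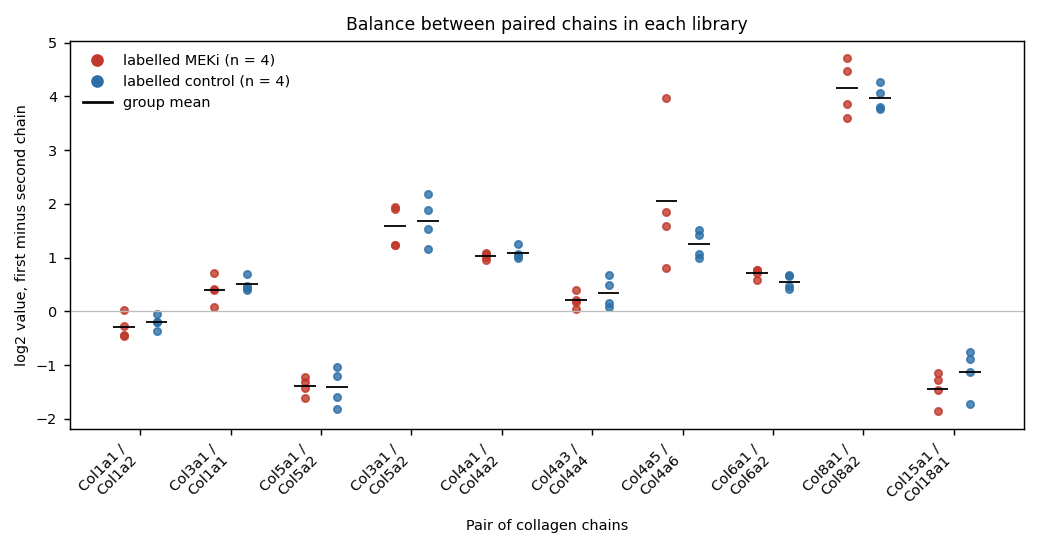
Log2 value of the first minus that of the second collagen chain within a library (y axis) for 10 pairs (x axis), 1 point per library and a bar at each group mean (n = 4 each). Differences of Col4a1 and Col4a2 stay between 0.95 and 1.26, and those of Col4a5 and Col4a6 between 0.80 and 3.97.

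Genes that make, process and bind collagens were read from lists, in which limma called 0 genes. Of the 15 genes that modify prolines and lysines of the chains in the endoplasmic reticulum, 6 were higher and 9 lower in sign (median -0.055). The smallest p there was that of Ppib, a prolyl isomerase of the collagen hydroxylation complex, at 11.29, 11.21, 11.10 and 10.98 in MEKi replicates 1 to 4, against 11.27, 11.41, 11.31 and 11.39 in control replicates 1 to 4. MEKi replicate 1 lay within the control range and the other 3 MEKi libraries lay below it. Of the 7 folding and export genes 4 were higher and 3 lower (median 0.041), the smallest p being that of Fkbp14, with a log2 difference of 0.17 (SE 0.15, 95% interval -0.16 to 0.51). Among the 7 measured procollagen cleavage genes 1 was higher and 6 were lower (median -0.081), with Adamts3, a procollagen N-proteinase, at -0.31 (SE 0.22, 95% interval -0.81 to 0.19).

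The 5 lysyl oxidases, which crosslink fibrils, had 3 members higher and 2 lower (median 0.021). Lox had 10.99, 11.42, 11.23 and 10.60 in MEKi replicates 1 to 4, against 12.08, 12.09, 11.48 and 10.57 in control replicates 1 to 4, a log2 difference of -0.50 (SE 0.32, 95% interval -1.22 to 0.23), with control replicates 1 and 2 above all others. Small leucine-rich proteoglycans, which bind fibrils, were lower in sign in 8 of 9 genes (median -0.13), none called. Dcn, which encodes decorin, had 12.46, 10.97, 10.28 and 11.73 in MEKi replicates 1 to 4, against 11.68, 12.79, 12.62 and 11.37 in control replicates 1 to 4. MEKi replicates 2 and 3 lay below all control libraries and MEKi replicates 1 and 4 within their range, and the log2 difference was -0.75 (SE 0.47, 95% interval -1.81 to 0.30). Of the 9 measured collagen receptor genes 5 were higher and 4 lower (median 0.0025), with the integrin gene Itga1 at 0.38 (SE 0.21, 95% interval -0.083 to 0.85) and the collagen-sensing kinase gene Ddr2 at -0.30 (SE 0.17, 95% interval -0.68 to 0.085). Pericyte and smooth muscle markers averaged 9.70 ± 0.21 in MEKi libraries and 9.58 ± 0.24 in control libraries (SD, n = 4 each), with 7 of 9 genes higher in sign. By limma 2 of the 9 had an unadjusted p under 0.05, against 1.77% of all genes. These were Myh11, at 0.37 (SE 0.14, 95% interval 0.060 to 0.69), and Cnn1, at 0.35 (SE 0.14, 95% interval 0.043 to 0.66). Groups did not overlap for 1, Cnn1, against 1.26% of all genes.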

How the data were processed

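Total RNA was extracted with TRIzol and columns, kept above an RNA integrity number of 7.5, and sequenced from strand-specific total RNA libraries, per the labels' protocols. STAR 2.5.3a, DESeq2 1.18.1 and build GRCm38 are named in the submitters' processing notes, while no source used here names the annotation, the counter or its strand setting. The deposited values are log2 variance-stabilised expression, scaled by the authors, with a floor of 5.12 that stands for 0 reads. Inverting the transformation from the floor gave whole reads for 100% of values (within 0.01), and depth, read numbers and levels per kilobase come from these. Of 19431 rows, 32 without a gene name were left out (0.101% to 0.167% of a library's reads), and for 86 symbols with several rows that of highest mean was kept. All 39 chains matched GENCODE M21 by symbol, which gave coordinates (counted from 1) and lengths. Exons shared with other genes covered at most 6.07% of a chain (Col9a3).

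Libraries were compared with limma 3.58.1 in R 4.3.3 (lmFit, eBayes with a trend, two-sided, no covariates) over 19133 genes, tested on simulated data. No batch is named in the labels. The p-values set the difference between labels against the spread among these libraries, each a tumour piece from its own mouse. Differences between mice and between pieces of a tumour cannot be told apart. The members, gene lists and pairs were chosen with earlier results of these data known. Any chain could be named. Per-library values are given for the 3 most abundant chains and the smallest p of each class, for paired chains and for the 5 widest ranges, and of other lists up to 3 genes of smallest p. Figures used matplotlib 3.10.9.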

Additional observations from a re-analysis of the deposited data

Results flagged for a closer look

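In groups of 4, a library was marked when its gap to the next, over the group's range, exceeded Dixon's 95% critical value, which chance alone does in about 1 in 20 groups; 5 of 98 groups checked (39 chains and 10 ratios in each label) were marked. Among MEKi libraries, Col14a1 stood apart at 9.58 in replicate 4, with the next at 10.94, and Col5a1 at 11.64 in the same replicate, with the next at 12.17. MEKi replicate 2 stood apart for Col18a1, highest at 13.67 with the next at 13.32, and for Col8a1, lowest at 12.23 with the next at 12.71. In control libraries Col17a1 was highest in replicate 1 at 6.21, with the next at 5.82, on 19 reads.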

How the results depend on the processing

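Under all 20 alternatives limma called 0 collagen chains. The count over all genes, 1 in the reported fit, was 0 with the 75% of genes of highest mean, the acinar or the fibroblast score as a covariate, or the replicate number as a block, 0 to 2 with each library left out, and 4 without control replicates 2 and 3, an alternative chosen after seeing the data. The median log2 difference over collagen chain genes, -0.12 as reported, was 0.0154 with the acinar score, 0.0785 with the fibroblast score, 0.0793 without control replicates 2 and 3, and -0.19 to 0.0305 with each library left out, above 0 without control replicate 2. The median log2 difference over fibrillar chains, -0.19 as reported, was 0.0319, 0.13 and 0.18 under the same 3 alternatives, -0.0208 with quantile normalization and -0.40 to 0.0484 with each library left out. For the median log2 difference over basement membrane type IV chains (-0.0371) these were 0.0596, 0.0105, 0.0279 and -0.21 to 0.0138. For the median log2 difference over beaded filament chains, those of type VI (-0.17), they were 0.0303, 0.23, 0.16 and -0.35 to 0.0658. For the median log2 difference over FACIT chains (-0.17) they were -0.0496, -0.0829, -0.10 and -0.27 to -0.0773, with -0.26 by voom. With each library left out, the lowest and highest values of fibrillar and type VI chains came without control replicate 4 and without control replicate 2. The cause of these shifts was not tested. Of 774 recomputed chain differences 90 had the other sign, and 13 chains never did, Col4a6 (-1.17 to -0.44) and Col27a1 (0.18 to 0.37) among them. The 774 include alternatives that leave the difference of a chain as it was and so could not turn its sign. These are the fits without the trend, with robust moderation, with the 75% of genes of highest mean, with every row kept and with the replicate block. The share of turned signs is thus no measure of stability. With the replicate number as a block, which cannot change a difference in this balanced design (median -0.12), 0 chains were called and 2, Col4a6 and Col6a4, had an unadjusted p under 0.05. The labels tie replicate numbers to no shared litter or day, and same-numbered libraries correlated at -0.33, 0.20, -0.47 and 0.02 in their deviations. For the chain ratios 0 of 10 passed in each alternative run, which says nothing of stability, as a single pair could not pass. Depth limits the 6 chains under 100 reads.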
